A study of Mus musculus with 45 samples.

Results

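The 10 genes described here are those of the serine, one-carbon and amino acid response set of mouse microglia: Phgdh, Psat1 and Psph, Shmt1 and Shmt2, Mthfd1l and Mthfd2, and Atf4, Asns and Trib3. Phosphoglycerate dehydrogenase (PHGDH), phosphoserine aminotransferase (PSAT1) and phosphoserine phosphatase (PSPH) make serine from an intermediate of glycolysis. The hydroxymethyltransferases SHMT1, in the cytosol, and SHMT2, in mitochondria, turn serine into glycine and pass a carbon unit to folate, and the mitochondrial enzymes MTHFD2 and MTHFD1L carry that unit on towards formate, which feeds purine and thymidylate synthesis. ATF4 is a transcription factor of the amino acid response, translated when the initiation factor eIF2alpha is phosphorylated. Asns, which encodes the asparagine-making enzyme, and Trib3, which encodes a pseudokinase that restrains ATF4, are classical ATF4 targets. In the brain, serine is known to be made largely by astrocytes.

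All 10 genes were listed in all 3 count tables of the series, among 42929 genes that the 3 tables share. They were picked by name with their levels and their changes in the 4 treatments already known, so those values are a description and carry no test here. Slice microglia came from organotypic brain slices of neonatal C57BL/6 mice, that is, slices kept alive on a membrane. After 2 weeks in culture the slices received 24 h of medium (9 libraries), TNF at 50 ng/mL (11 libraries) or GM-CSF at 20 ng/mL (9 libraries), and each library pooled 3 slices per the labels. The study's figure legends describe some of these pools as smaller. Adult microglia came from C57BL/6 mice aged 10 to 15 weeks, 24 h after an intraperitoneal injection of LPS, a bacterial cell wall component, at 1 mg/kg (4 libraries) or of PBS (4 libraries). Brain tissue came from C57BL/6 mice of the same ages 24 h after the same LPS dose (4 libraries) or without any treatment (4 libraries), so its controls were not injected. The titles of all adult microglia and brain tissue libraries carry the mark WT, for wild type. Microglia were sorted as CD11b high, CD45 intermediate cells.

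The depth per library was 5973364 to 9165485 counts for slices, 11391577 to 14216034 for adult cells and 8199881 to 10368603 for tissue, and in tissue every LPS library was shallower than every untreated one. The 10 microglia markers, given in CPM (read counts put on a shared library size), moved with treatment without overlap in sorted microglia. They summed to 21880 to 31280 CPM in medium, 15670 to 18050 with GM-CSF and 10400 to 13360 with TNF, with 7 and 9 of the 10 called lower than in medium. In adult microglia they summed to 61690 to 68770 CPM with PBS and 40330 to 48430 with LPS (5 of 10 called lower). The part of this fall in the values of the members was not tested. In brain tissue they overlapped, at 316 to 363 CPM in untreated and 247 to 429.5 in LPS libraries. There 3 of 10 were called lower and 0 higher, while 6 of 10 had a positive log2 fold change (median 0.18). The 247 CPM came from LPS replicate 3, beside 408, 413 and 429.5 in the other LPS libraries. That library was also the lowest of its group in Phgdh, Psph, Shmt2, Atf4 and Trib3, and the highest in Psat1, Shmt1 and Mthfd1l. The 10 astrocyte markers, the defining ones of the cell type in which serine synthesis is best known, summed to 14.5 to 87.4 CPM in slice microglia and 1.73 to 3.61 CPM in adult microglia, against 4354 to 5128 CPM in brain tissue. These astrocyte markers overlapped between the 3 slice groups, and Gjb6 and Sox9 stood at 0 in all PBS libraries. Border macrophage markers in slices summed to 290 to 698 CPM in medium, 305.5 to 542 with TNF and 301 to 862 with GM-CSF. Within them Mrc1 averaged 96.4, 29.6 and 125 CPM in that order, and F13a1 303, 346 and 323.5. Monocyte and neutrophil markers summed to 0.449 to 13.98, 2.57 to 116 (TNF replicate 6) and 2.82 to 42.9 CPM. Oligodendrocyte markers stood at 139 to 225, 151 to 310 and 109 to 181 CPM. The part of these lists was not tested. Per the study's legends the in vivo LPS samples came from independent mice, and the slice libraries from separately treated slices of several independent experiments. The labels do not tie slice libraries to experiments or animals, so their spread may be partly technical.

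The regulatory sequences of these genes were read from windows of 300 bases around each RefSeq start (GRCm38.p6, 250 bases before to 50 after), which were found for all 10. The core of the C/EBP-ATF response element, to which ATF4 is known to bind as a dimer with C/EBP proteins, was searched as TGATGNAA on both strands and occurred in 3.97% of 32851 mouse promoter windows. Among the members it was present in Asns and, on the opposite strand, in Trib3. A form of it that differs from those letters, TGGTGCAAT, was chosen after the windows had been looked at. It occurred in 29 of 32851 windows (0.0883%), which included those of Psat1 and Trib3. The matches are shown because few windows hold these letters, and binding of ATF4 was not measured. They are printed with the matched letters in capitals, each window 5′ to 3′ on the strand of its gene.
Asns, 23 bases before the start, chr6:7693214-7693243, minus strand: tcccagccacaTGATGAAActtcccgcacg
Trib3, 14 bases after the start, chr2:152344028-152344057, minus strand: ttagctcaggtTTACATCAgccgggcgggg
Trib3, 33 bases before the start, chr2:152344074-152344103, minus strand: gggtcacagaTGGTGCAATcccgggccgct
Psat1, 136 bases before the start, chr19:15925176-15925205, minus strand: cgcgggtggcTGGTGCAATcccctgctctc

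The CCAAT box, CCAAT on either strand, was present in 6 members (Phgdh, Psat1, Psph, Shmt1, Mthfd2 and Atf4) and in 37.4% of all windows. The palindromes CACGTG (7.15% of windows) and TGACGTCA (1.79%) occurred in none of the 10. A CCAAT match is shown for the first enzyme of serine synthesis and for ATF4 itself, with the box in capitals.
Phgdh, 23 bases before the start, chr3:98339975-98340004, minus strand: aagcatttctgaCCAATcaaaaggagactg
Atf4, 76 bases before the start, chr15:80255096-80255125, plus strand: gccacgcctgggCCAATcagctcgacgcgc

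TNF and GM-CSF, 2 cytokines that act on microglia, were compared with medium to ask how each shifts slice microglia. Calls needed a fold change over 1.5 together with an adjusted p under 0.05 in edgeR's quasi-likelihood test. With TNF, 5 of the 10 genes passed, all higher (Shmt2, Mthfd1l, Mthfd2, Atf4 and Asns), where 20.8% of the 11313 genes tested were called. With GM-CSF, 5 of the 10 passed, all higher (Psph, Shmt1, Shmt2, Mthfd2 and Asns), where 10.8% of genes were called. These comparisons share their medium libraries. The median log2 fold change of the 10 was 0.58 with TNF and 0.53 with GM-CSF, beside -0.03 and -0.04 over all genes tested. Groups without any overlap were found for 4 members in each comparison, beside 10.3% of all genes with TNF and 5.6% with GM-CSF. Since the members were picked with these values in view, nothing is read from the counts.

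**Figure D1:**
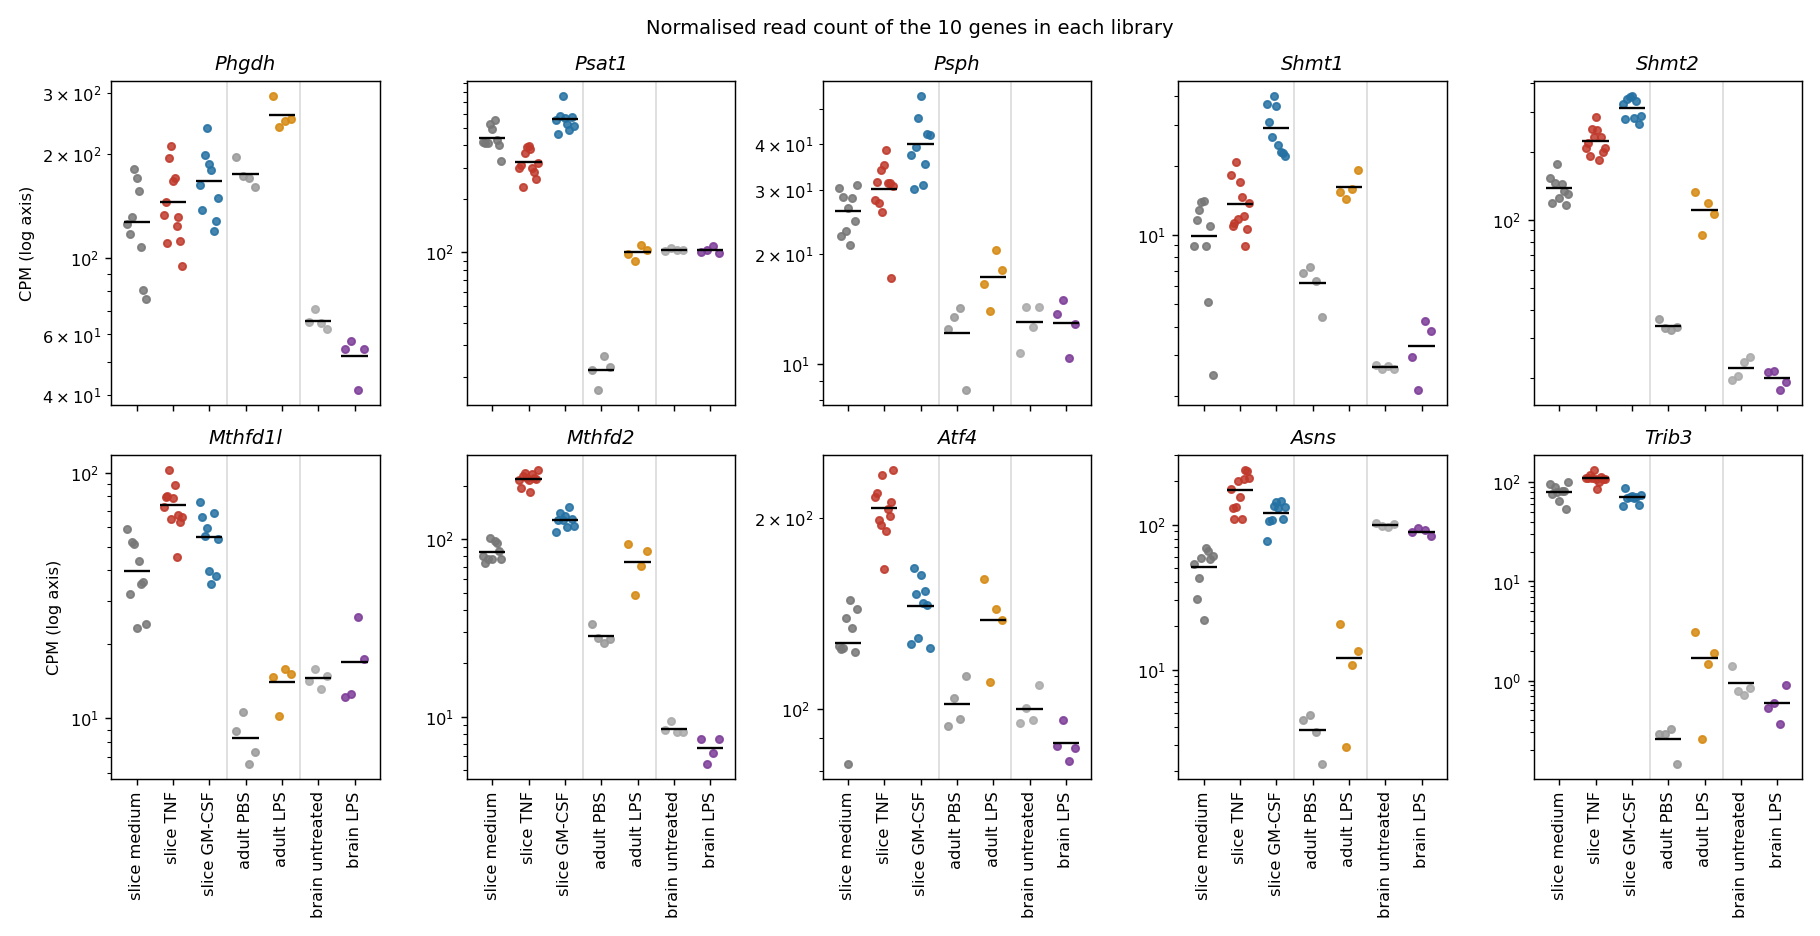
Normalised read count (CPM, log axis) of each gene in each of the 45 libraries, with a panel per gene, 7 groups along the x axis and the group mean as a black line. Mthfd2 and Asns lay above all medium libraries in every TNF and every GM-CSF library, and Psat1 fell into separate bands in PBS (16.8 to 26.3 CPM) and LPS (89.3 to 111 CPM) adult microglia; the 3 tables were normalized separately.

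Of the serine synthesis enzymes, Psat1 was the most abundant in slice microglia. Its CPM in medium had a lowest value of 325, a median of 417 and a highest of 559. With TNF these were 233, 309.5 and 395, and with GM-CSF 466.2, 558 and 761. TNF libraries thus ran lower and GM-CSF libraries higher than medium, with overlap on both sides. The log2 fold change was -0.47 ± 0.10 (SE) with TNF and 0.34 ± 0.10 with GM-CSF, neither past 1.5-fold.

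Phgdh, the entry enzyme of the pathway, varied more between libraries than between treatments. Its CPM ran from 76.1 to 179.9 in medium (median 125), from 94.4 to 211 with TNF (median 133) and from 119 to 237 with GM-CSF (median 162), so that all 3 groups overlapped. The log2 fold changes of 0.19 ± 0.15 and 0.39 ± 0.16 were under the call limits.

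Psph, which completes the pathway, ran from 21.2 to 30.9 CPM in medium (median 26.7), from 17.2 to 38.5 with TNF (median 31.3) and from 30.1 to 54.3 with GM-CSF (median 39.4). In 8 of 9 GM-CSF libraries it exceeded every medium library, with a log2 fold change of 0.60 ± 0.13. An exon of Psph overlaps the chaperonin subunit gene Cct6a on the opposite strand, and use of strand in counting is not given in the sources used here. Cct6a itself averaged 256 ± 28.3 CPM (SD) over the 9 medium libraries, 412 ± 42.0 over the 11 with TNF and 423 ± 45.1 over the 9 with GM-CSF, and its part in the Psph counts was not tested.

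The hydroxymethyltransferases reached their highest levels with GM-CSF. Shmt2 ran from 116 to 175 CPM in medium (median 134), from 184 to 285 with TNF (median 219) and from 265 to 353 with GM-CSF (median 325). Neither cytokine group overlapped medium, and the log2 fold changes were 0.70 ± 0.08 and 1.18 ± 0.09. Shmt1, the cytosolic enzyme, was the lowest of the 10 per length in slice microglia, at 7.25 ± 2.93 TPM (transcript abundance scaled for length, n = 9) in medium. It ran from 2.46 to 14.01 CPM in medium (median 10.9), and all 9 GM-CSF libraries exceeded this, at 22.0 to 40.2 CPM (median 26.6), with a log2 fold change of 1.56 ± 0.22. With TNF it ran from 8.9 to 20.7 CPM and overlapped medium, at 0.46 ± 0.21.

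The mitochondrial folate enzymes reached theirs with TNF. Mthfd2 ran from 73.6 to 101 CPM in medium (median 80.2), from 184 to 246 with TNF (median 220.4) and from 109.9 to 152 with GM-CSF (median 128.5). The 3 groups did not overlap at any point, TNF being the highest, and the log2 fold changes were 1.36 ± 0.07 and 0.60 ± 0.07. Mthfd1l ran from 23.35 to 58.9 CPM in medium, and 10 of 11 TNF libraries lay above that range, at 45.3 to 103 CPM in all, with a log2 fold change of 0.89 ± 0.16. With GM-CSF 4 of 9 libraries lay above it (0.46 ± 0.17, under the call limit).

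Atf4 mRNA ran from 82.0 to 149 CPM in medium (median 126), from 166 to 238 with TNF (median 206.5) and from 125 to 167 with GM-CSF (median 147). All 11 TNF libraries exceeded every medium library, at a log2 fold change of 0.70 ± 0.08, while GM-CSF libraries overlapped medium, at 0.19 ± 0.08. Asns had the largest log2 fold change of the 10 genes with TNF, at 1.76 ± 0.18. It ran from 22.0 to 68.9 CPM in medium (median 57.9), from 109 to 239 with TNF (median 177) and from 77.75 to 146.5 with GM-CSF (median 131). Both cytokine groups lay above medium throughout, and the GM-CSF value was 1.24 ± 0.18.

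Trib3 parted from Asns. It ran from 53.3 to 100.2 CPM in medium (median 81.3), from 85.0 to 134 with TNF (median 110.2) and from 57.9 to 88.3 with GM-CSF (median 71.1). With TNF 10 of 11 libraries exceeded every medium library (log2 fold change 0.45 ± 0.09, under 1.5-fold), and with GM-CSF all 9 lay within the medium range (-0.19 ± 0.10).

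Set directly against each other, the cytokines differed in 4 of the 10 genes past the call limits, where 16.2% of genes were called (8.25% up and 7.96% down in TNF relative to GM-CSF). Mthfd2 (log2 fold change 0.77 ± 0.07) and Trib3 (0.64 ± 0.09) were higher with TNF, and Psat1 (-0.81 ± 0.10) and Shmt1 (-1.10 ± 0.21) were lower with TNF than with GM-CSF. For Psat1, Shmt1 and Mthfd2 the 11 TNF and 9 GM-CSF libraries did not overlap, as in 7.93% of all genes. With total counts in place of TMM scaling the split became 1 higher and 3 lower, since Trib3 (0.47) lost and Shmt2 gained its call. That scaling moved the median over all genes from -0.02 to -0.19, and the share of higher among all called genes from 50.9% to 31.4%. For GM-CSF against medium it moved that share from 44.8% to 63.9% and the median from -0.04 to 0.07, and the same 5 members stayed called.

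**Figure D2:**
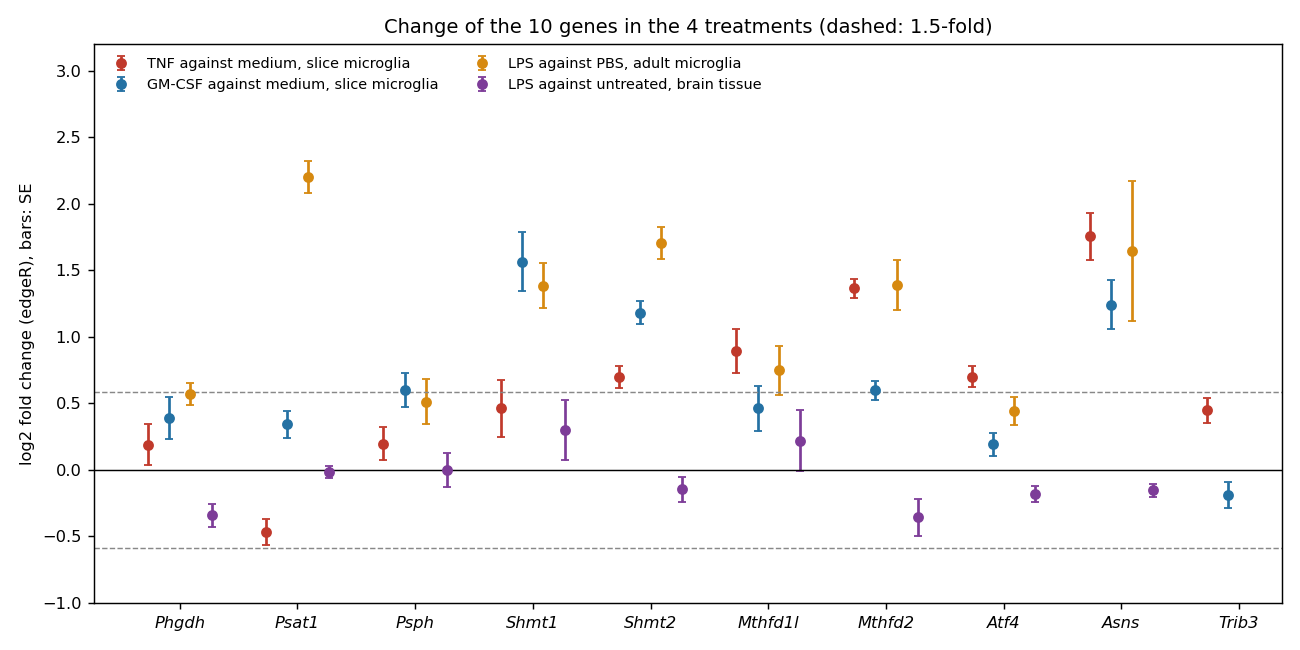
Log2 fold change of each gene (x axis) in the 4 treatments (colours), with bars of 1 SE and dashed lines at 1.5-fold. Psat1 was at -0.47 with TNF and 2.20 with LPS in adult microglia, all brain tissue values lay between -0.36 and 0.30, and Trib3 has no value in the adult microglia and brain tissue because it did not pass the filter on low counts.

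The slice libraries carry the codes 1A, 1B, 2A and 2B in their titles, whose meaning the labels do not give. Phgdh kept the same order of codes in all 3 groups. Its mean CPM in 1B was 179.9 in medium (1 library), 191 with TNF and 218 with GM-CSF, while in 2B it was 87.95, 112.5 and 132. With codes 1A and 1B alone 5 members were called with TNF and 4 with GM-CSF (Psph lost its call). Over all genes 2273 and 1216 of 11466 were called there. With codes 2A and 2B alone the members called were 5 and 5, beside 1868 and 785 of 11361 genes. With the code as a block, GM-CSF kept 3 calls: Psph (log2 fold change 0.58) and Mthfd2 (0.58) came just under the 1.5-fold limit. Over all 11313 genes that block called 1232, against 1222 without it.

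**Figure D3:**
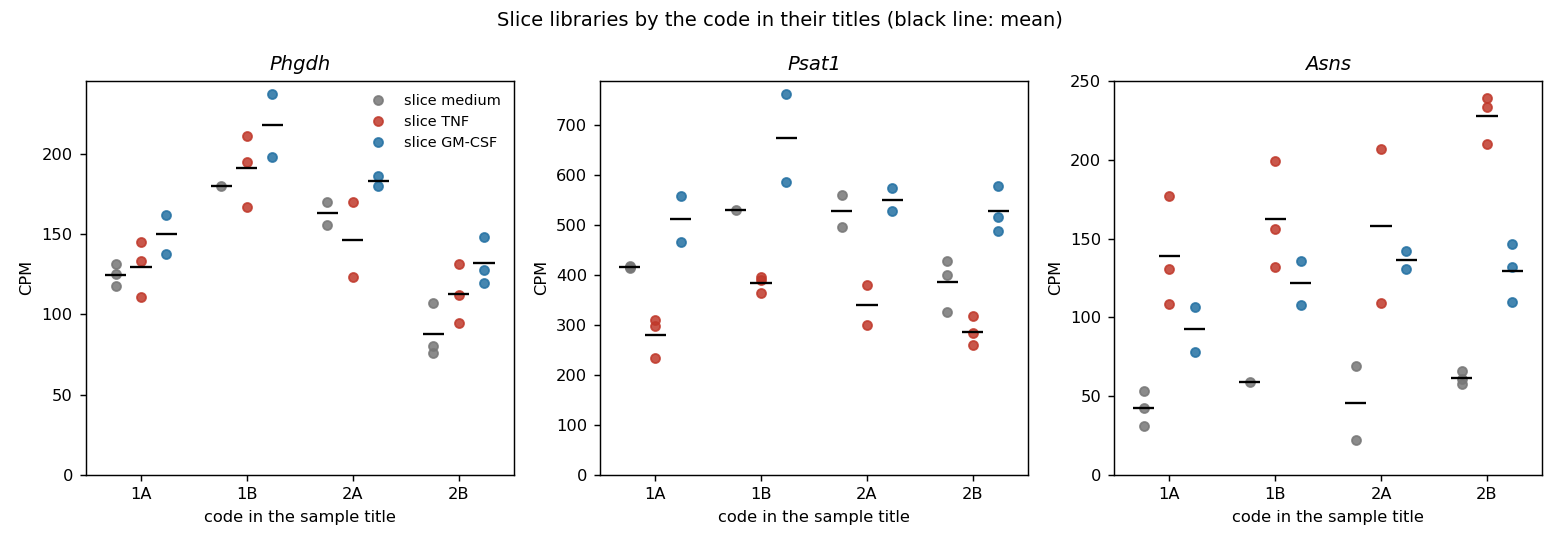
CPM of Phgdh, Psat1 and Asns in the 29 slice libraries by title code (x axis) and treatment (colours), with means as black lines. Phgdh was highest in 1B and lowest in 2B in each treatment, whereas Asns with TNF was highest in 2B, at 210.1 to 239 CPM.

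Variation between libraries of the same group was not used to pick the members, and was tested over the 29 slice libraries. Of the 45 gene pairs, 29 had a positive Pearson r of the deviations of log2 CPM from group means. In 8 pairs, all positive, the permutation test within groups gave an adjusted p under 0.05 over the 45 pairs. Phgdh and Psat1, consecutive enzymes, had r = 0.809 (p = 1e-05, the smallest that 100000 permutations can give, adjusted p = 0.00045) and Spearman's rho = 0.796 (p = 1e-05, adjusted p = 0.00045). Without the 2 libraries farthest from the median r was 0.792. Shmt2 followed both, with r = 0.62 (p = 0.00077, adjusted p = 0.0148, rho = 0.624) for Phgdh and r = 0.60 (p = 0.00099, adjusted p = 0.0148, rho = 0.576) for Psat1 in the permutation test. Shmt1 had r = 0.569 with Phgdh (permutation p = 0.00274, adjusted p = 0.0154, rho = 0.556) and r = 0.549 with Psat1 (permutation p = 0.00234, adjusted p = 0.015). For that last pair rho was 0.469, with an adjusted permutation p of 0.057.

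A second cluster of pairs linked Asns with Atf4 (r = 0.618, permutation p = 0.00185, adjusted p = 0.015, rho = 0.52) and with Mthfd2 (r = 0.573, permutation p = 0.00197, adjusted p = 0.015, rho = 0.596). Without the 2 farthest libraries r was 0.454 for Asns with Atf4 and 0.523 for Asns with Mthfd2. Shmt2 with Mthfd1l had r = 0.567 (permutation p = 0.00215, adjusted p = 0.015, rho = 0.55). None of the enzymes of serine synthesis was in a pair past the threshold with Atf4, and Phgdh with Atf4 had r = -0.278 (permutation p = 0.192, adjusted p = 0.432). When deviations were taken from the means of treatment by title code, r was 0.525 for Phgdh and Psat1 (permutation p = 0.0621). It was 0.659 for Atf4 and Asns (permutation p = 0.0807) and 0.704 for Shmt2 and Mthfd1l (permutation p = 0.00735). For Shmt1 with Phgdh r fell from 0.569 to 0.0675, and for Shmt1 with Psat1 from 0.549 to 0.425. For Shmt2 r fell from 0.62 to 0.344 with Phgdh and from 0.60 to 0.35 with Psat1. For Asns with Mthfd2 it went from 0.573 to 0.535. No pair then passed the threshold after adjustment. The smallest adjusted value was 0.0902, for Shmt1 with Trib3 (r = -0.72, permutation p = 0.00401) and Asns with Trib3 (r = 0.535, permutation p = 0.00231), and Shmt2 with Mthfd1l had 0.11.

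**Figure D4:**
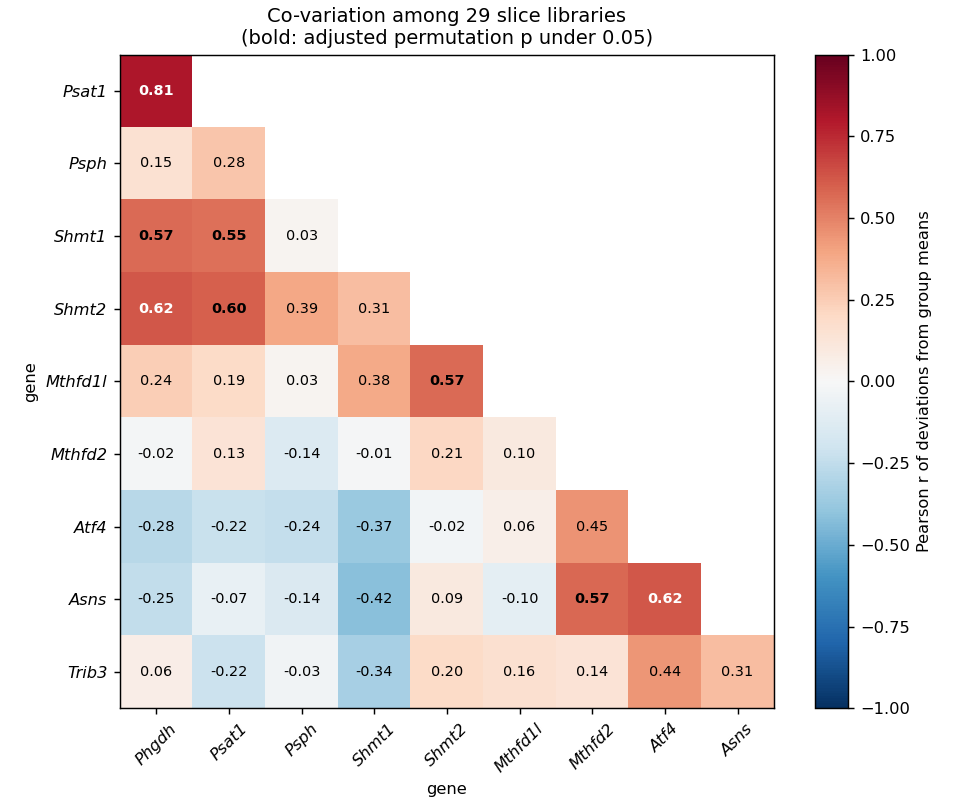
Pearson r of the deviations from group means for the 45 pairs of the 10 genes over 29 slice libraries, as a coloured lower triangle with both axes listing genes and bold type where the adjusted permutation p was under 0.05. Of the 8 bold pairs, those among Phgdh, Psat1, Shmt1, Shmt2 and Mthfd1l had r from 0.549 to 0.809. Those among Mthfd2, Atf4 and Asns had r of 0.573 and 0.618. Not every pair among these genes was bold, as Shmt1 with Shmt2 had 0.306 and Mthfd2 with Atf4 0.449. Mthfd1l had 0.243 with Phgdh, 0.191 with Psat1 and 0.382 with Shmt1, none of them bold.

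Over the same deviations and 11312 other genes, the genes most like each of the 7 members called against medium were named as a description. Shmt2 was most like Mars, the methionyl-tRNA synthetase (r = 0.767), and Slc7a5, a large neutral amino acid transporter (r = 0.753). Asns was most like Nars, the asparaginyl-tRNA synthetase (r = 0.752), then Anxa1 and Tmed5. Shmt1 was most like Tmc7 (r = 0.772), Fen1, a nuclease of DNA replication (r = 0.767), and Plpp1. Fbxo5 came next for Shmt2 (r = 0.738). The other leading genes were Pigf, Scrib and Det1 for Psph, Slc35e4, Ube2o and Ube2z for Mthfd1l, Gtdc1, Rpa3 and Dcakd for Mthfd2, and Zfp286, Tgds and A430033K04Rik for Atf4, with r from 0.644 to 0.746. All of these values share libraries and depth, and each is the top of a search over all genes. With deviations from treatment-by-code means, r fell to 0.595 for Shmt2 with Mars, 0.583 for Shmt2 with Slc7a5 and 0.604 for Asns with Nars. It rose for some other pairs, to 0.77 for Psph with Pigf and 0.78 for Asns with Anxa1. Psph with Scrib had a rho of only 0.353.

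In adult microglia, LPS was compared with PBS to follow microglia after systemic inflammation in the animal. Of the 9 members that passed the filter, 6 were called, all higher (Psat1, Shmt1, Shmt2, Mthfd1l, Mthfd2 and Asns), where 27.4% of 12987 genes were called, and their median log2 fold change was 1.38 beside 0.01 over all genes. The groups did not overlap for 5 of the 10 members, nor for 47.5% of all genes tested. Markers of other cell types moved in these libraries too. Border macrophage markers summed to 10.1 to 15.7 CPM with PBS and 27.3 to 44.5 with LPS. Monocyte and neutrophil markers summed to 39.8 to 76.9 CPM with PBS and 4.53 to 11.9 with LPS. Of the 6 and 8 genes listed, only 3 and 5 passed the filter, some through the group where they were high. Cbr2 averaged 0.516 CPM with PBS and 7.73 with LPS, and Ngp 17.4 and 0.847. Calls within these lists are therefore not read. The part of these markers in the members' values was not tested. Starting levels had another order than in slices. Per length, Phgdh led the 10 genes in PBS microglia at 231 ± 18.0 TPM (n = 4), ahead of Atf4 at 142 ± 12.6 TPM without overlap. Shmt2 (35.9 ± 1.57 TPM), Mthfd2 (26.9 ± 2.76 TPM) and Psat1 (16.9 ± 3.11 TPM) followed, each below the one before it without overlap. Psph (9.26 ± 1.92 TPM), Mthfd1l (6.18 ± 1.31), Shmt1 (5.25 ± 1.04) and Asns (4.61 ± 1.39) formed a run of neighbours with overlapping libraries. Trib3 came last at 0.403 ± 0.122 TPM. In medium slice microglia Psat1 led at 296 ± 47.2 TPM (n = 9) and Asns stood at 53.3 ± 16.4 TPM.

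Psat1 changed most. Its CPM was 21.7, 16.8, 26.3 and 22.6 in PBS and 98.4, 89.3, 111 and 103 in LPS libraries, with a gap between the groups and a log2 fold change of 2.20 ± 0.12. Phgdh was 195, 172, 169 and 159.9 CPM in PBS and 294, 239, 248 and 252 in LPS. Its groups did not overlap either, but its log2 fold change of 0.57 ± 0.08 came just under the 1.5-fold limit. Psph, at 8.51 to 14.3 CPM in PBS and 13.96 to 20.6 in LPS, overlapped slightly (0.51 ± 0.17, not called), and Cct6a stood at 159.7 ± 7.83 CPM in PBS and 291 ± 7.43 in LPS (n = 4 each).

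Shmt2 was 36.3, 33.2, 32.5 and 33.5 CPM in PBS and 132, 85.5, 118 and 106 in LPS. The log2 fold change of 1.71 ± 0.12 was the second largest of the 9. Shmt1 was 6.82, 7.26, 6.28 and 4.40 CPM in PBS and 15.3, 14.4, 15.8 and 19.1 in LPS (1.38 ± 0.17). In both genes every LPS library lay above every PBS library. Smcr8 stood at 42.7 ± 4.0 CPM in PBS and 36.5 ± 6.08 in LPS, and its part in the Shmt1 counts was not tested here either.

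Mthfd2 was 33.1, 27.7, 26.0 and 27.3 CPM in PBS and 93.4, 48.3, 70.8 and 86.0 in LPS, again without overlap, at a log2 fold change of 1.39 ± 0.19. Mthfd1l was 6.52 to 10.6 CPM in PBS and 10.3 to 15.96 in LPS, with 1 LPS library within the PBS range (0.75 ± 0.18). Atf4 was 94.0, 104, 96.6 and 113 CPM in PBS and 160.5, 110.4, 144 and 138 in LPS. Replicate 2 of the LPS group overlapped PBS, and the log2 fold change of 0.44 ± 0.11 was under the call limit.

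Asns depended on single libraries. Its CPM was 4.52, 4.89, 3.70 and 2.24 in PBS and 20.6, 2.91, 10.8 and 13.5 in LPS, where replicate 2 lay inside the PBS range and the other 3 were above it. The log2 fold change was 1.64 ± 0.53. The call was lost when any 1 of the 8 libraries other than LPS replicate 2 was left out (1.23 to 1.78), and without LPS replicate 2 it held, at 1.96. Trib3 had 4, 4, 4 and 2 counts in PBS and 42, 3, 19 and 26 counts in LPS libraries and did not pass the filter. The same LPS library, replicate 2, was again the low one. It was also the lowest of its group in Phgdh, Psat1, Psph, Shmt1, Shmt2, Mthfd1l, Mthfd2 and Atf4. It was the shallowest of the 8 libraries, and its proliferation genes summed to 385 CPM, against 230 to 258 in the other LPS libraries and 76.8 to 91.1 in PBS. Its microglia markers summed to 48430 CPM, against 40330 to 44010 in the other LPS libraries and 61690 to 68770 in PBS. Without this library, 9 of 10 members were called, Phgdh, Psph and Trib3 being added. Over all genes 4044 of 13225 were then called, against 3563 of 12987 with every library. What sets this library apart was not tested.

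In brain tissue 0 of 9 members that passed the filter were called by edgeR after LPS and 0 by DESeq2, where 3.18% of 15083 genes were called by edgeR, and 4 of the 9 had an unadjusted p under 0.05. The median log2 fold change of the 9 was -0.15 beside 0.00 over all genes. Microglia are a small part of this tissue, and in bulk samples fewer cells of a type and less RNA per cell cannot be told apart. Psat1 was 102, 106, 103 and 103 CPM in untreated and 101, 103, 108 and 98.6 in LPS libraries, a log2 fold change of -0.01 ± 0.04, where adult microglia had 2.20. Phgdh was 65.2, 71.0, 64.9 and 62.2 CPM in untreated and 54.3, 57.3, 41.5 and 54.4 in LPS libraries, without overlap (-0.34 ± 0.08, under 1.5-fold). Beside it, the astrocyte markers summed to 4354 to 4694 CPM in untreated and 4732 to 5128 in LPS libraries, higher with LPS. Within that list Gfap averaged 160.0 and 412 CPM in the same order and Aldoc was at 709 and 815, while Aqp4 went from 150.0 to 110.2 and Gja1 from 194 to 178. The oligodendrocyte markers summed to 6629 to 7267 CPM in untreated and 5038 to 6030 in LPS libraries, without overlap (3 of 10 called lower). The part of either list was not tested.

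Asns was 103, 98.4, 96.3 and 100.3 CPM in untreated and 88.5, 94.7, 91.9 and 83.0 in LPS brain tissue, also without overlap (-0.15 ± 0.05). Mthfd2 was 8.44, 9.43, 8.18 and 8.25 CPM in untreated and 7.49, 5.42, 6.29 and 7.53 in LPS brain tissue, likewise without overlap (-0.36 ± 0.14). Groups without overlap were found in 3 of the 9 members and in 16.9% of all genes tested. Atf4 (-0.18 ± 0.06), Shmt2 (-0.15 ± 0.10), Psph (-0.00 ± 0.13), Shmt1 (0.30 ± 0.23) and Mthfd1l (0.22 ± 0.23) overlapped, and Trib3 had 7 to 14 counts in untreated and 3 to 8 in LPS libraries. Per length, Atf4 (137 ± 8.40 TPM) and Asns (117 ± 3.08 TPM) led in untreated brain tissue, whereas Asns was among the lowest in PBS microglia.

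Genes around the 10 were followed in 7 lists, also drawn up with earlier results of these data known, so their counts are given beside the share of all genes called and are not independent support. Across all genes the calls with TNF were 9.1% higher and 11.7% lower, those with GM-CSF 4.84% and 5.96%, those with LPS in adult cells 14.4% and 13%, and those with LPS in tissue 2.63% and 0.55%. The ATF4 and CHOP response list (28 genes other than the members) had 12 of 25 tested genes higher and 0 lower with TNF, 8 higher and 2 lower with GM-CSF, and 11 higher and 1 lower of 23 with LPS in adult microglia. Slc7a11, the cystine and glutamate exchanger, rose with TNF from 1.964 ± 1.36 (n = 9) to 58.4 ± 16.7 CPM (n = 11), a log2 fold change of 4.88 ± 0.31 (edgeR adjusted p = 3.19e-15). Cebpb, a C/EBP transcription factor, rose with TNF in 11 of 11 libraries, by 1.58 ± 0.08 (edgeR adjusted p = 1.2e-18). With GM-CSF the amino acid transporters Slc7a5 (1.49 ± 0.13, edgeR adjusted p = 8.47e-11) and Slc1a5 (1.298 ± 0.12, edgeR adjusted p = 2.39e-10) rose in all 9 libraries. Slc1a5 rose most of the list with LPS in adult microglia, from 10.3 ± 1.03 to 71.5 ± 16.5 CPM (n = 4 each, log2 fold change 2.80 ± 0.18, edgeR adjusted p = 9.63e-07). The glycine transporter Slc6a9 rose there too (1.94 ± 0.36, edgeR adjusted p = 0.000798) and with TNF (1.44 ± 0.30, edgeR adjusted p = 0.000145). Ddit3, which encodes CHOP, was not called in any treatment against its control, at 0.48 ± 0.16 with TNF, -0.46 ± 0.17 with GM-CSF and -0.30 ± 0.10 with LPS in adult microglia.

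The cytosolic tRNA synthetases, which charge tRNAs with amino acids, had 3 of 20 genes higher with TNF, 7 with GM-CSF and 11 with LPS in adult microglia, and 0 lower in each. Their median log2 fold changes were 0.43, 0.48 and 0.65. Vars was the most changed with LPS (1.38 ± 0.09, edgeR adjusted p = 6.22e-07). Between TNF and GM-CSF edgeR and DESeq2 each called 0 of the 20, with 7 at an unadjusted p under 0.05.

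Purine synthesis, which takes up one-carbon units, had 6 of 12 genes higher with GM-CSF, 7 with LPS in adult microglia, and 1 higher and 1 lower with TNF. Atic, which adds the last of these units, rose with GM-CSF (0.97 ± 0.13, edgeR adjusted p = 4.83e-07) and with LPS (1.28 ± 0.18, edgeR adjusted p = 0.00019). Ppat, the first enzyme, was lower with TNF than with GM-CSF (-0.86 ± 0.11, edgeR adjusted p = 1.7e-07). The proliferation genes moved beside these: with TNF 9 of 12 were lower, with GM-CSF 1 was higher, and with LPS in adult microglia 4 of 11 were higher and 1 lower. Their part in the levels of the folate and purine genes was not tested.

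The folate cycle list had 2 genes higher and 2 lower of 17 with TNF, 3 and 3 with GM-CSF and 5 and 1 with LPS in adult microglia. Tyms, thymidylate synthase, rose with GM-CSF (1.06 ± 0.16, edgeR adjusted p = 1.93e-06). Folr2, a folate receptor, fell with TNF (-1.12 ± 0.28, edgeR adjusted p = 0.00114) and with GM-CSF (-1.25 ± 0.29, edgeR adjusted p = 0.00123). Its level was low throughout, at 6.88 ± 2.66 CPM in medium, 3.15 ± 1.13 with TNF and 2.88 ± 1.12 with GM-CSF. Which cells in the libraries carried it was not tested. Of the methionine cycle, Srm, spermidine synthase, rose in each of the 3 microglia treatments (0.71 ± 0.11, 1.38 ± 0.12 and 1.23 ± 0.13), and Ahcy, which clears S-adenosylhomocysteine, rose with LPS (1.68 ± 0.16, edgeR adjusted p = 6.2e-06).

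The enzymes that use serine and glycine had 0 of 8 called with TNF by edgeR and 0 by DESeq2 (3 at an unadjusted p under 0.05), 1 higher with GM-CSF (Gcat, 1.16 ± 0.36, edgeR adjusted p = 0.0147, but 0.465 with codes 2A and 2B alone and 0.00428 to 0.046 under its other alternatives) and 3 of 10 higher with LPS in adult microglia (Gcat, Sptlc2 and Gcsh). Among eIF2alpha kinases and regulators, Eif2ak2, the kinase PKR, rose with TNF (1.27 ± 0.15, edgeR adjusted p = 1.24e-08) and after LPS in adult microglia (1.45 ± 0.13, edgeR adjusted p = 5.3e-06) and in brain tissue (1.08 ± 0.14, edgeR adjusted p = 0.000142). In brain tissue the calls of all 7 lists were Eif2ak2, Cebpb (higher, 0.73 ± 0.20, edgeR adjusted p = 0.0287) and Slc7a5 (lower, -0.67 ± 0.06, edgeR adjusted p = 1.59e-06). The call of Cebpb was lost without LPS replicate 2 or untreated replicate 1, 2 or 3, and with DESeq2, at adjusted p-values of 0.0662 to 0.0955.

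**Figure D5:**
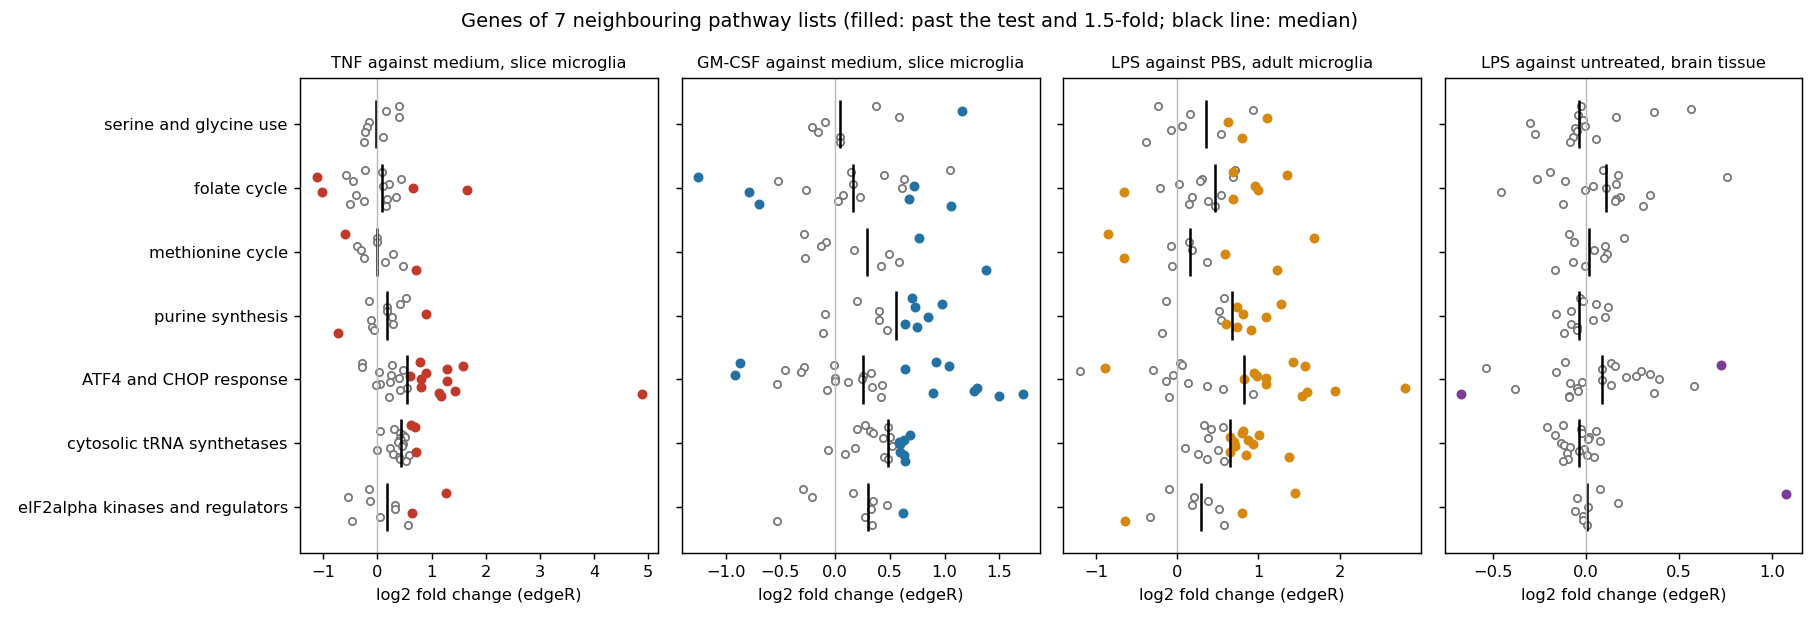
Log2 fold change (x axis, a separate scale per panel) of each tested gene of 7 pathway lists (rows) in the 4 treatments (panels), filled where called and with the list median as a black line. The ATF4 and CHOP response list had 12 filled points with TNF and the tRNA synthetases 11 with LPS in adult microglia, while brain tissue had 3 filled points over all 7 lists.

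The LPS effect in adult microglia minus that in brain tissue was tested as an interaction over the 16 libraries, where 19.7% of 16676 genes were called (9.1% higher and 10.6% lower). Tissue, library kit, run and the kind of control coincide there and cannot be told apart. The purine list had 8 of 12 genes higher and 0 lower, and the tRNA synthetases 13 of 20 and 0. Slc1a5 differed by 2.21 ± 0.28 (edgeR adjusted p = 7.03e-06), Vars by 1.33 ± 0.11 (edgeR adjusted p = 6.01e-08) and Ahcy by 1.46 ± 0.22 (edgeR adjusted p = 2.99e-05). For Phgdh the difference was 0.90 ± 0.13 and for Psat1 2.21 ± 0.13, both as a description.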

How the data were processed

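Slice microglia, adult microglia (both SMART-Seq v4 cDNA with Nextera XT libraries) and brain tissue (TruSeq mRNA) were sequenced. The authors deposited raw counts per gene for slice microglia, and expected counts, which need not be whole, for the other tables; 70872 and 69680 values that were not whole were rounded here. The submitters' notes name STAR 2.7.0a, featureCounts and Subread 1.6.4 for slice microglia and mm10 for all; for the other tables, and for annotation and strand, the sources used here give nothing. Among the brain rows, 92 that name no gene held 0 counts. Depths are in the report and intervals cover no amplification error, as there are no molecular identifiers.

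Genes were named with GENCODE M21. Each table was tested alone, the 29 slice libraries in 1 fit, and the 16 others jointly for the interaction, with edgeR 4.0.16 in R 4.3.3 (TMM, minimum count 10, minimum total 15, robust quasi-likelihood test, Benjamini-Hochberg adjustment within a comparison), on simulated data first. CPM used TMM factors and TPM exon union lengths. Correlations used log2(CPM + 0.5). Groups came from the labels. The members and lists were chosen with earlier results of these data known. Named besides the members are up to 3 called genes per list and comparison with the largest change, from which the text takes a part, the 3 genes most like each member called against medium in slice microglia, marker genes, and genes chosen after their values were seen (Ddit3 and 4 astrocyte markers). DESeq2 1.42.0, other scalings, filters, blocks and left-out libraries were alternatives. Correlations of deviations between same-numbered replicates ran from -0.0796 to 0.195 and did not exceed 0.1 in every pair of any comparison, so numbers were not taken to pair samples. Exons of Shmt2 overlap Ndufa4l2 (at most 2.20 CPM on average) and the pseudogene Phgdh-ps1 had at most 0.0201 CPM. RefSeq promoter windows came from GRCm38.p6.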

Additional observations from a re-analysis of the deposited data

Results flagged for a closer look

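In 60 combinations of a gene and a group of 4 to 9 libraries, 3 held a library far from the others, which chance gives in about 1 of 20 groups. TNF was not examined. Psat1 was highest in GM-CSF replicate 4, at 761 CPM. Atf4 was lowest in medium replicate 5, at 82.0 CPM, a library that was also the lowest of its group in Asns (22.0 CPM) and Mthfd1l (23.35 CPM). Trib3 was highest in untreated brain tissue replicate 1, at 1.41 CPM, from 14 counts.

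The LPS effect in adult microglia was above that in brain tissue by the interaction term of edgeR for 8 of 10 members. Of 16676 genes, 19.7% were called there (9.1% higher). Tissue, library kit, run and the kind of control coincide in that comparison. The differences of the log2 fold changes were 0.902 for Phgdh, 2.21 for Psat1, 1.07 for Shmt1, 1.84 for Shmt2, 1.74 for Mthfd2, 0.614 for Atf4, 1.8 for Asns and 3.29 for Trib3. The value of Trib3 rests on 2 to 42 counts per library and depends on the prior count, so it is no measure of size. The members were picked with both LPS comparisons in view.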

How the results depend on the processing

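Of 426 member values recomputed under the alternatives, 423 moved by less than the spread between libraries and 0 reversed; scaling by total counts moved TNF against GM-CSF to 0.59 for Mthfd2, 0.34 for Atf4 and 0.47 for Trib3. Of 596 values of the wider-list genes 570 kept their call and 26 lost it, with 0 reversed; among them were Cebpb in brain tissue under 5 alternatives (edgeR and DESeq2 adjusted p 0.0662 to 0.0955), and Folr2 with codes 1A and 1B alone (TNF) or 2A and 2B alone (GM-CSF), as was Gcat with GM-CSF under the latter (0.465). With title code as a block GM-CSF called 3 members, beside 1232 of 11313 genes. Without the fold limit TNF against GM-CSF called 9 members and brain tissue 1 (Phgdh). The share of all genes called without that limit is not given here, so nothing is read from these counts. With deviations from treatment-by-code means 0 pairs correlated past the threshold. With the replicate block, TNF called 5, GM-CSF 5, TNF against GM-CSF 4, LPS in adult microglia 5 (Asns was lost) and brain tissue 0. Over all genes that block called, in the same order, 2423, 1258 and 1828 of 11313, 3452 of 12987 and 448 of 15083. Leaving out 1 library gave 5 to 9 members in adult microglia (9 without LPS replicate 2) and 0 to 0 in brain tissue. Low counts limit Trib3 in adult microglia and brain tissue, where it did not pass the filter.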
